A study of Arabidopsis thaliana with 7 samples.

Results

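Membrane transporters and ion channels were taken from 6 lists of genes near open chromatin peaks. The lists come from comparisons of the *msh1* memory line of *Arabidopsis thaliana* with wild type. A gene counted as a member when the first part of its description contained transporter, channel, carrier, antiporter, symporter, aquaporin, intrinsic protein, exchanger, H+-ATPase or MATE efflux, and did not contain auxin, kinase or acyl carrier. The rule found 55 genes among the 2600 genes that stood in at least 1 list. The descriptions of 51 of the 55 name a membrane transport protein, which for *ABC1* rests on the name alone, and those of the other 4 do not. The 4 are *KAS* and *MOD1*, enzymes of fatty acid synthesis whose substrate is bound to a carrier protein, *CNX7*, which passes on sulfur in molybdenum cofactor synthesis, and AT1G36050, which is described as a vesicle transporter of the endoplasmic reticulum. They are kept in the counts and described apart.

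FAIRE-seq sequences the DNA that stays soluble after formaldehyde crosslinking because little protein holds it, so that reads collect over open chromatin. The tissue was the whole rosette of Columbia-0 plants raised on MS medium at 24 °C, in days of 12 h light, until they were 14 days old. The wild type group had 2 crosslinked plants (replicates 2 and 3), and the msh1 memory line group had 3 crosslinked plants (replicates 1, 2 and 3). The memory line, in the Columbia-0 background, comes from ancestors silenced for *MSH1*, whose nuclear-encoded product protects organelle genomes; the silencing transgene was lost by segregation. Decrossed DNA pooled from 3 plants per genotype, made as a technical check, did not enter the lists. Each of the 6 lists names genes that the authors associated with a peak, within a window reaching 2 kb past the gene on both sides, when 1 memory plant was compared with 1 wild type plant. In the lists the wild type plants are coded C2 and C3, and the labels do not say which replicate each code is. A value is therefore presence or absence, with no peak height, position, direction of change or p-value. A listing does not say whether the memory plant was more or less open than the wild type plant. The 3 lists against 1 control share that control library, and the 2 lists of 1 memory plant share that plant. Whole rosettes mix cell types, so a change in the share of a cell type and a change in openness within its cells cannot be told apart.

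Plant membranes are energised by proton pumps, and most carriers use the resulting gradient to move ions, sugars, amino acids and metals across the plasma membrane and the vacuolar membrane. Channels let ions pass down their gradient, and calcium-permeable channels, which include the cyclic nucleotide gated and the osmotically gated families, take part in signalling. ABC transporters are driven by ATP itself, and mitochondrial carriers exchange metabolites across the inner mitochondrial membrane. In a rosette leaf these proteins load and unload the veins, fill the vacuole and supply plastids and mitochondria.

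Of the members 10 stood in all 6 lists, and the DNA before 4 of these genes is shown here: a channel, an exchanger, a potassium carrier and a polyol carrier, each with over 1 kb of free space upstream, so that no other protein-coding gene lies in the window. The window is the 250 bases directly before the annotated gene start in TAIR10.1, read 5′ to 3′ on the strand of the gene. Capitals mark matches on either strand to TATAAA (a core promoter element, here called TATA box), AAAAAAAA (a poly(dA:dT) run), GAGAGA (a purine repeat), CACGTG (a G-box, bound by bZIP and bHLH factors), AAAATATCT (the evening element) and TTGACC or TTGACT (a W-box, bound by WRKY factors). None of these motifs lies inside another. The window of *CNGC1* is chr5:21541030-21541279 (minus strand), that of *NHX4* chr5:22472707-22472956 (minus strand), that of *POT1* chr2:12834571-12834820 (plus strand) and that of *PLT2* chr2:7001922-7002171 (plus strand).
CNGC1: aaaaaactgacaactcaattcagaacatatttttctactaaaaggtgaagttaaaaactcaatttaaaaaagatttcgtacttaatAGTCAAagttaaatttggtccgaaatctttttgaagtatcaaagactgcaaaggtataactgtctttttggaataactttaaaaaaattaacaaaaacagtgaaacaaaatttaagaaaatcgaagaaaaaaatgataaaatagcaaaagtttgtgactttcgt
NHX4: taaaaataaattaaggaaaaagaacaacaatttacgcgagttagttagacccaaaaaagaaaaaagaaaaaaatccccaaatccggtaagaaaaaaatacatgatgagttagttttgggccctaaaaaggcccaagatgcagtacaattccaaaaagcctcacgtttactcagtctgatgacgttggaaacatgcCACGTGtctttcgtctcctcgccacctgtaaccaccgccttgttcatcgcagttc
POT1: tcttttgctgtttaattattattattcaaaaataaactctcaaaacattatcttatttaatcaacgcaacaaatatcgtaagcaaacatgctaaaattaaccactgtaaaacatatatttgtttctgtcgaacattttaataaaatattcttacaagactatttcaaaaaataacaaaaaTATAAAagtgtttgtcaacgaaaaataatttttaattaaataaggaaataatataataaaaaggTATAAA
PLT2: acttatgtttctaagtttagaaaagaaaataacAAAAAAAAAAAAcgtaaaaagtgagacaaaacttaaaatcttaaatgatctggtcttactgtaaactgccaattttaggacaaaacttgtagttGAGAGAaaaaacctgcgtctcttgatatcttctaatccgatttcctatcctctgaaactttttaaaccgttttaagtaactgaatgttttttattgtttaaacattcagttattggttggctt

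The windows of these genes differed in makeup. The *POT1* window was 80.4% A and T and held TATAAA at bases -70 to -65 and -6 to -1 from the gene start. The *CNGC1* window was 75.2% A and T, with a W-box on the opposite strand at -164 to -159. In *NHX4*, with 60.4% A and T, the G-box lay at -55 to -50. In *PLT2* the A run covered -217 to -206. Over all 10 members in 6 lists, TATAAA was found in 5 windows, GAGAGA in 3, the W-box in 4, the poly(dA:dT) run in 1, the G-box in 1 and the evening element in 0. Over all 27443 windows of the genome the shares were 47.3% for TATAAA, 20.6% for GAGAGA, 28.4% for the W-box, 28.8% for the poly(dA:dT) run, 6.49% for the G-box and 2.36% for the evening element. Over all 426 genes in 6 lists they were 43.2%, 20.9%, 32.2%, 25.8%, 9.62% and 2.58% in the same order. Over the 55 members they were 49.1%, 18.2%, 32.7%, 27.3%, 14.5% and 3.64%, the G-box standing for 8 genes. The median A and T content was 69.0% for the 10 members, 67.6% for the 55 members, 66.6% for all genes in 6 lists and 68.8% for all genes. No peak position is known, so no window can be said to be the open one.

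The 55 members were 16 genes in 1 list, 17 in 2, 7 in 3, 3 in 4, 2 in 5 and 10 in all 6. The share in all 6 lists was 18.2%, beside 16.4% of all 2600 listed genes. The share in a single list was 29.1%, beside 31.3% of all listed genes. The median was 2.0 lists per gene in the members and 2.0 in all listed genes, with means of 2.78 and 2.86. In recurrence the transporters and channels thus lay close to listed genes at large. *MSH1* itself (AT3G24320) was in 0 of the 6 lists.

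**Figure D1:**
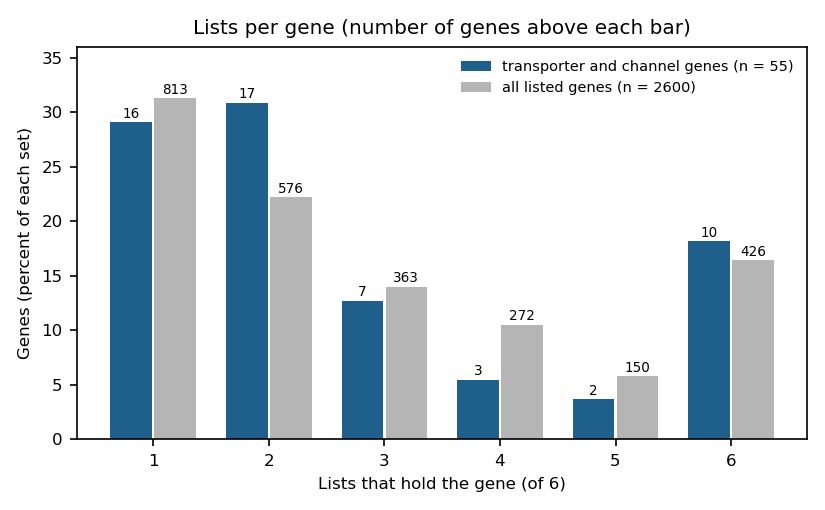
Bars give the percent of each set of genes found in 1 to 6 lists, with the number of genes above each bar. The 55 transporter and channel genes have 10 members in all 6 lists (18.2%) beside 426 of all 2600 listed genes (16.4%), and 17 members in 2 lists (30.9%) beside 576 (22.2%).

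The potassium, the sodium and cation/proton, and the calcium and cyclic nucleotide gated classes held 5 of the 10 genes found in every list. These classes had 2, 2 and 5 of the 55 members. Over all listed genes 16.4% were in all 6 lists. The magnesium carrier *ATMGT7*, also in all 6 lists, moves a cation too but is counted with the metals. The classes are joined here for description only, and no class was tested against another. In the annotation, 5.56% of potassium channels and carriers and 5.0% of sodium and cation/proton antiporters were in at least 1 list, beside 9.47% of all genes. Of the annotated genes, 2 of 20 cyclic nucleotide gated channels and 0 of 26 calcium pumps and exchangers were in all 6 lists, beside 1.55% of all genes. Of 20 glutamate receptor channels 0 were in any list. *CNGC10* (AT1G01340, chromosome 1, 132270 to 135924, minus strand) and *CNGC1* (AT5G53130, chromosome 5, 21537721 to 21541029, minus strand) encode cyclic nucleotide gated channels of the plasma membrane. *ERD4* (AT1G30360, chromosome 1, 10715482 to 10718997, plus strand) encodes a calcium-permeable channel opened by high osmolality. Of the other 2 calcium-related members, *CCX4*, a cation/calcium exchanger, was listed for plant 2 against both controls and for plant 3 against C3. *CNGC12* stood only in the list of plant 3 against C3. The median of these 5 genes was 6.0 lists, beside 2.0 for all listed genes. Listings of *CNGC1* cannot be told apart from those of its neighbour *SPDS3*, which was also in all 6 lists.

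*POT1* (AT2G30070, chromosome 2, 12834821 to 12838655, plus strand) encodes a KT/KUP potassium carrier and was in all 6 lists. The second potassium carrier, *KUP11*, was in 1 list, that of plant 1 against C3. *NHX4* (AT5G55470, chromosome 5, 22469245 to 22472706, minus strand), which the RefSeq annotation names *NHX3*, encodes a sodium/hydrogen exchanger and was in all 6 lists. *CHX18*, a cation/proton antiporter of the CHX family, was in 5 lists and was missing only for plant 3 against C3. The 2 members of the sodium and cation/proton class therefore had 11 of their 12 possible listings. Only listed genes can be members, so unlisted genes of these families do not enter that count.

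Among anion channels *VDAC2* (AT5G67500, chromosome 5, 26935075 to 26937650, plus strand) was in all 6 lists; it encodes a porin of the outer mitochondrial membrane. *CLC-F*, a chloride channel protein of the Golgi, was listed for plant 1 against both controls. *CLC-A*, the vacuolar nitrate/proton exchanger, was listed for plant 1 against C2, and *ALMT13*, of the malate channel family, for plant 1 against C3. Listings of these 3 genes thus came from plant 1 alone.

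*BOR3* (AT3G06450, chromosome 3, 1975915 to 1980110, minus strand), described as an HCO3 transporter family member and named after the borate exporters, was in all 6 lists. *SULTR2;2*, a sulfate transporter, was listed for the 3 plants against C2 and for plant 1 against C3. The putative glycerol-3-phosphate transporter 4 gene (AT4G17550) was listed for plants 2 and 3 against C2 and for plant 1 against C3, so that no plant had it against both controls. *PHT1-7*, a phosphate transporter, was listed for plant 1 against both controls, and *AMT1-2*, an ammonium transporter, for plant 1 against C3.

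*ATMGT7* (AT5G09690, chromosome 5, 3000612 to 3003539, minus strand), a magnesium transporter of the MRS2 family, was the metal carrier found in all 6 lists. The other 4 metal carriers were in 2 lists each. *ATOPT3*, which moves iron in the phloem, was listed for plant 1 against both controls. *NRAMP3*, which releases iron and manganese from the vacuole, was listed for plant 1 against C2 and plant 3 against C3. *NRAMP2* (plants 1 and 3) and *YSL2* (plants 2 and 3), a carrier of metals bound to nicotianamine, were listed against C2 alone.

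In the sugar class *PLT2* (AT2G16130, chromosome 2, 7002172 to 7004235, plus strand), a putative polyol transporter, was in all 6 lists. The nucleotide/sugar transporter gene AT4G32272 was in 3 lists, 1 for each plant. *GONST3*, of the Golgi nucleotide sugar carriers, was listed for plant 3 against both controls. *SWEET6*, a bidirectional sugar carrier, and the *ERD6*-like 4 gene (AT1G19450) were in 1 list each, both against C3.

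The largest class was that of amino acid carriers, with 7 members, and it had 0 genes in all 6 lists and a median of 1.0 list. Over all listed genes 16.4% were in all 6 lists and the median was 2.0. With 7 genes the count of 0 is a description only. *AVT1C*, of the vacuolar amino acid carriers, was listed for the 3 plants against C2 and for none against C3. *AVT3B* showed the opposite, with plants 1 and 2 against C3 and none against C2. *CAT9*, a cationic amino acid transporter, was listed for plant 1 against both controls. *CAT2* and *AVT6C* were listed for plant 1 against C2, the proline transporter gene *PROT1* for plant 2 against C3, and the MtN21/EamA-like gene AT5G47470 for plant 3 against C3.

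Nucleobase and nucleotide carriers had 4 members with 1 to 4 lists. *NAT1*, a nucleobase-ascorbate transporter, was listed for the 3 plants against C2 and for plant 1 against C3. *BTL1* (AT3G20240), a probable adenine nucleotide carrier, was listed for plant 2 against both controls. *ENT5* and *ENT4*, equilibrative nucleoside carriers, were direct gene neighbours, yet *ENT5* stood in the 3 lists against C2 and *ENT4* only in that of plant 1 against C3. The 4 mitochondrial carriers were in 1 or 2 lists. *MPC2*, a subunit of the pyruvate carrier, and AT5G51050, of the substrate carrier family, were listed for plants 1 and 3 against C2. *MTM1* was listed for plant 1 against both controls and *COAC1*, a coenzyme A carrier, for plant 2 against C3.

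Among 5 genes named as ABC transporters, *ABCB23* (AT4G28630, chromosome 4, 14138321 to 14141054, minus strand), a mitochondrial half-transporter, was in all 6 lists. *ABCG42* was listed for plant 2 against both controls and for plant 3 against C2, *ABCI19* for plant 1 against both controls and *ABCA5* for plant 3 against C3. *ABC1* (AT4G01660), named as an ABC transporter but related to the yeast protein Abc1 (Coq8) that acts in ubiquinone synthesis, was listed for plant 1 against C3. The remaining classes held single genes. The aquaporin gene *TIP1-3*, a water channel of the vacuolar membrane, was listed for plants 1 and 2 against C2. *OCT5*, an organic cation/carnitine transporter, was listed for plants 2 and 3 against C2, and the solute carrier family 35 gene AT3G59340 for plant 1 against C2. There were 0 proton pumps and 0 MATE efflux carriers among the members, since the rule reads the words of the descriptions. The proton pump gene *AHA11*, in all 6 lists, and the MATE carrier gene *DTX18*, in 1 list, lacked those words.

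The 4 genes whose descriptions name no membrane transport protein were in 2 to 5 lists. *CNX7* was in 5 and was missing only for plant 3 against C3. *MOD1* was listed for plants 1 and 2 against both controls, *KAS* for plant 1 against both controls, and AT1G36050 for plant 2 against both controls and for plant 3 against C2.

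**Figure D2:**
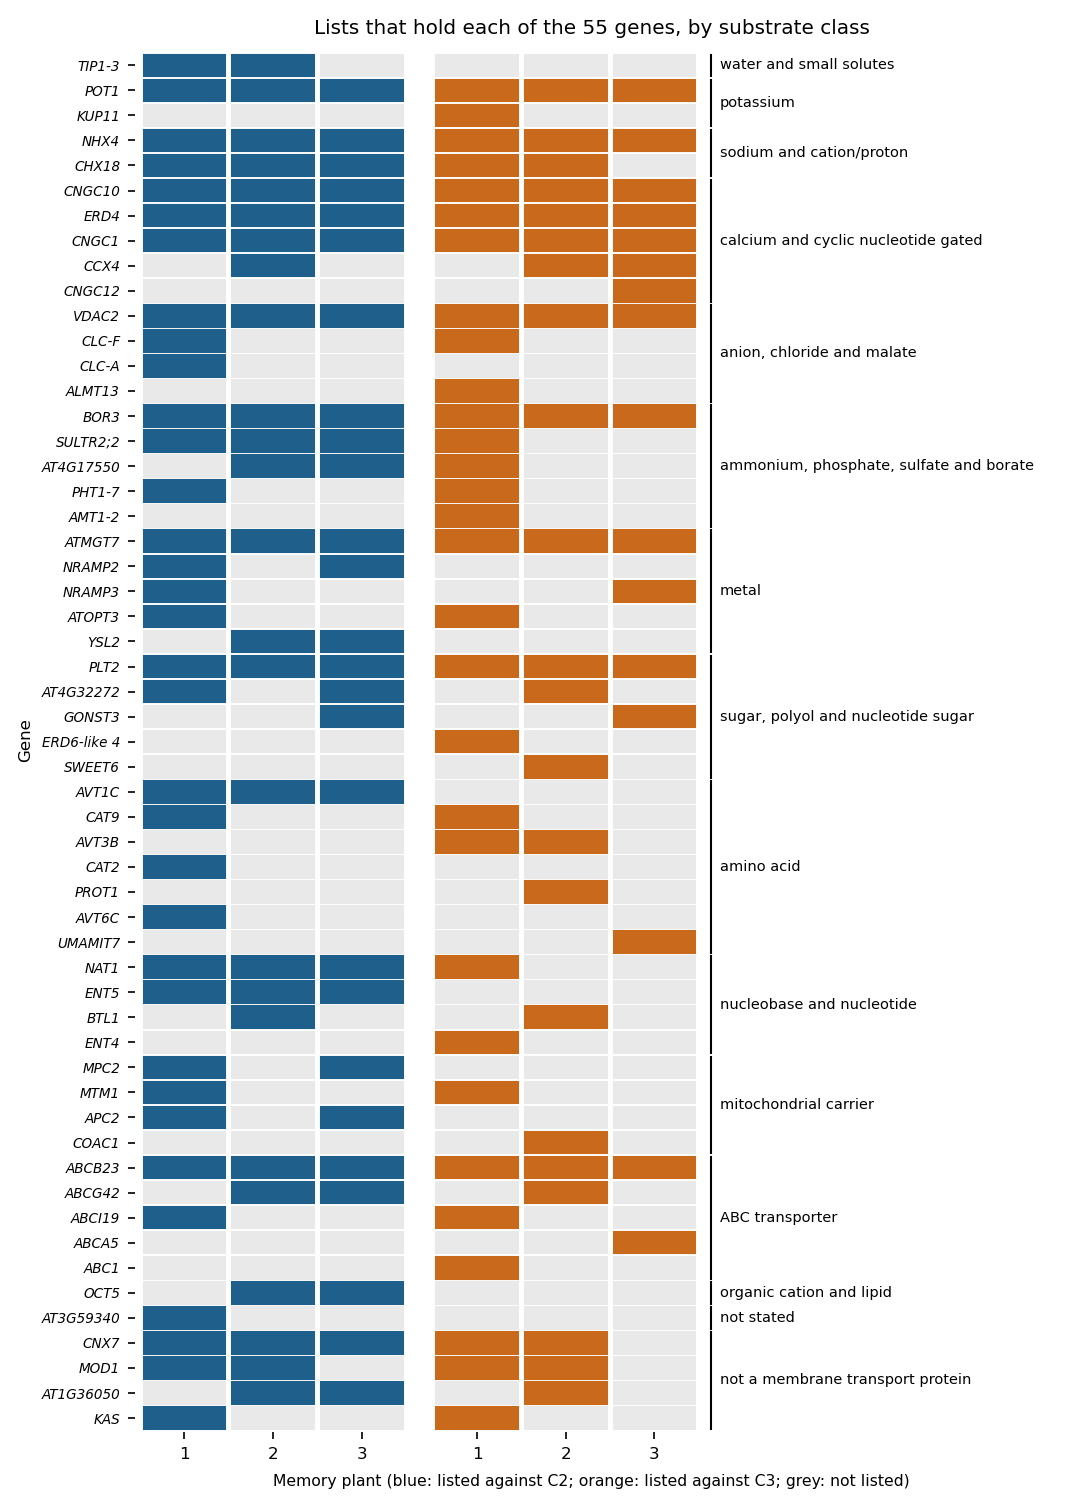
Each row is 1 of the 55 genes, grouped by substrate class, and each column is 1 list (memory plants 1 to 3 against C2 in blue, against C3 in orange, not listed in grey). The 10 genes filled in every column spread over 8 classes, 3 of them among calcium and cyclic nucleotide gated channels, and the 7 amino acid carriers have none. Over all listed genes 16.4% are in all 6 lists, and no class was tested.

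By list, plant 1 had 34 members against C2 and 30 against C3. Plant 2 had 25 and 22, and plant 3 had 26 and 16. These were 2.11%, 1.93% and 2.14% of the genes in the lists against C2 and 2.30%, 2.09% and 1.64% of those in the lists against C3. Of all 27444 nuclear protein-coding genes, the lists against C2 held 5.86%, 4.72% and 4.42% for plants 1, 2 and 3, and those against C3 held 4.76%, 3.84% and 3.55%. The lists against C2 were the longer ones in all 3 plants, by 1.23, 1.23 and 1.25 times over all genes and by 1.13, 1.14 and 1.62 times over the members. The value for plant 3 rested on the 16 members in its list against C3, which were 29.1% of the members where that list held 37.4% of all listed genes. No test was made, because a list has 1 library on each side and the lists share libraries.

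**Figure D3:**
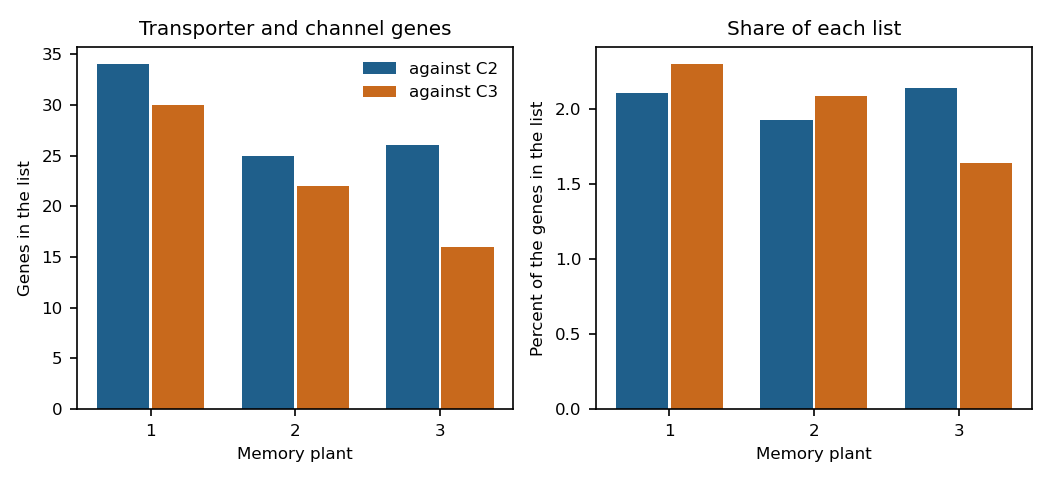
The left panel gives the number of transporter and channel genes in each list and the right panel their percent of the genes in that list, by memory plant and control (C2 blue, C3 orange). Counts against C2 (34, 25 and 26) exceed those against C3 (30, 22 and 16) in each plant, and the shares of the lists lie between 1.64% and 2.30%.

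Listing against C2 alone was found for 12 members (21.8%), beside 31.2% of all listed genes, and listing against C3 alone for 13 members (23.6%), beside 19.1%. The 30 other members (54.5%) stood against both controls, beside 49.7% of all listed genes. Within 1 plant, 27 members had at least 1 plant in which both controls listed the gene, namely 10 with all 3 plants, 3 with 2 plants (*CHX18*, *CNX7* and *MOD1*) and 14 with 1 plant. The 28 others (50.9%, beside 51.7% of all listed genes) were never listed against both controls in the same plant. For plant 1, 22 genes were common to its lists of 34 and 30, which is 64.7% and 73.3% of them. For plant 2, 17 were common (68.0% and 77.3%), and for plant 3, 11 were common (42.3% and 68.8%). Over all genes the lists of plants 1, 2 and 3 against C2 shared 61.6%, 53.5% and 55.2% of their genes with the list of the same plant against C3, and those against C3 shared 75.9%, 65.9% and 68.8% in turn.

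A single memory plant gave all listings of 25 members (45.5%), beside 41.3% of all listed genes. Plant 1 accounted for 17 of these 25, plant 2 for 4 and plant 3 for 4. Over all genes, plant 1 also had the most genes of its own, with 571 beside 297 and 205. All 3 plants contributed to 18 members (32.7%), beside 37.2% of all listed genes. The most common pattern after presence in all 6 lists was presence for plant 1 against both controls, with 7 members (*ABCI19*, *CAT9*, *CLC-F*, *KAS*, *PHT1-7*, *ATOPT3* and *MTM1*). The pattern of plant 1 against C3 alone followed with 6 members. Shares of these patterns over all listed genes are not given here, and plant 1 had the longest list against each control. Pairs of lists without any library in common, from other plants and other controls, shared 11 to 16 members, which is 32.4% to 64.0% of the members in the list against C2, beside 39.6% to 57.5% over all genes in these lists.

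Unlisted genes cannot enter the rule, which reads the descriptions in the lists, so whole transport families were also counted in the annotation. Families were taken by RefSeq symbol or product and held 847 genes. Of these, 70 were in at least 1 list (8.26%) and 10 in all 6 (1.18%). The 70 include only 40 of the 55 members. *ERD4*, *BOR3* and *VDAC2*, members in all 6 lists, and the *ERD6*-like 4 gene fell in no family. The 10 family genes in all 6 lists are thus not the 10 members in all 6. They include 3 genes outside the rule, *AHA11*, *PUP13* and AT1G72820. The background was 9.47% of all 27444 genes in at least 1 list and 1.55% in all 6. When the wording of the rule was applied to RefSeq product names, it found 773 genes, with 71 listed (9.18%) and 13 in all 6 (1.68%). Transport genes collected in either way were therefore listed at rates near the background.

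The families differed in their counts. Of 20 cyclic nucleotide gated channel genes, 3 were listed and 2 were in all 6 lists, while 0 of 20 glutamate receptor channel genes were listed. Of 46 nucleobase and nucleoside carriers 7 were listed, and of 111 amino acid carriers 14. Among magnesium transporters 2 of 15 were listed. Sodium and cation/proton antiporters had 2 of 40 listed (5.0%), and potassium channels and carriers 2 of 36 (5.56%), beside 9.47% of all genes. Each of these 2 families had 1 gene in all 6 lists. Calcium pumps and exchangers had 3 of 26 listed and 0 in all 6 lists. At the other end, 1 of 56 MATE carriers, 1 of 33 phosphate transporters and 5 of 127 ABC transporters were listed. With so few listed genes in a family, these shares are descriptions, and no family was tested against another.

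**Figure D4:**
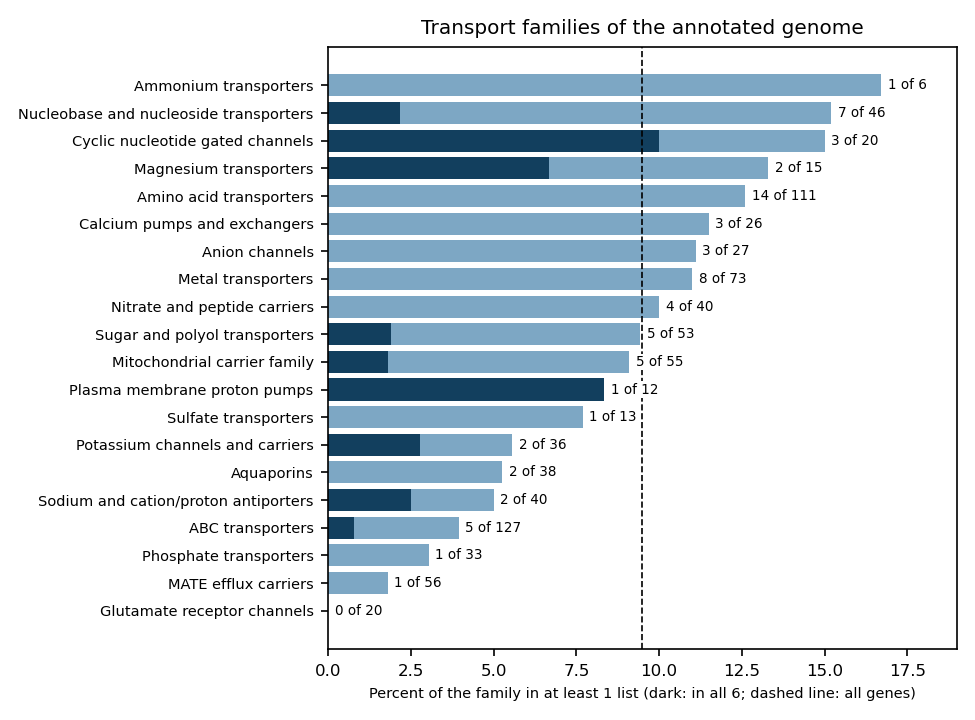
Bars give the percent of each transport family of the annotated genome found in at least 1 list (pale) and in all 6 lists (dark), with the number listed of the number in the family. The dashed line is the 9.47% of all protein-coding genes, and the families run from 0 of 20 glutamate receptor channels to 1 of 6 ammonium transporters.

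Among the 70 listed family genes, 30 were not members because their descriptions in the lists lack the words of the rule, and 3 of these were in all 6 lists. They were *AHA11*, a plasma membrane proton pump described only as an ATPase, *PUP13*, a probable purine permease, and AT1G72820, a mitochondrial substrate carrier by its RefSeq product. *NPF6.3*, the nitrate transporter and sensor NRT1.1, was in 5 lists and was missing for plant 2 against C3. *NPF7.3* (NRT1.5), a further nitrate transporter, was in 4. *PLT5*, a polyol transporter of the same family as *PLT2*, was listed for the 3 plants against C2 and for plant 1 against C3. *MRS2-4*, of the same family as *ATMGT7*, was listed for plants 1 and 2 against both controls. *ACA4*, a calcium pump of the vacuole, was listed for the 3 plants against C2 alone, and *SIP1-1*, an aquaporin, for the 3 plants against C3 alone. Amino acid carriers made up 7 of the 30, with *UMAMIT45* (AT3G28100) in 5 lists, *UMAMIT40* (AT5G40240) in 4 and the others in 1 or 2. Of the 14 listed genes of that family 0 were thus in all 6 lists, beside 16.4% of all listed genes. The family was listed at 12.6%, beside 9.47% of all genes. The 30 genes had a median of 2.0 lists, the same as the members.

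Transport genes often stand in tandem arrays. Within the 20 families counted, 10 members had a direct neighbour from their own family, in 12 pairs of genes, and in 0 of these pairs did both genes stand in the same list. That count covers only pairs with a member. Outside the rule, *UMAMIT46* (AT3G28070), *UMAMIT47* (AT3G28080) and *UMAMIT45* (AT3G28100) lie close together on chromosome 3, between 10447845 and 10461000. All of them stood in the list of plant 1 against C2, and *UMAMIT46* and *UMAMIT45* also in that against C3. A neighbour in a shared list was uncommon at large, since 12.7% of members and 20.0% of all listed genes had any such neighbour within 4 kb. Outside these families, the solute carrier family 35 gene AT3G59340 lay 192 bp from AT3G59330, of the same description, which was in 0 lists. *PLT2*, in all 6 lists, lay 3730 bp from its family member *PMT1*, and *ABCB23*, also in all 6, lay 367 bp from *ABCB24*, and neither neighbour was in any list. *CNGC12* lay 598 bp from *CNGC11*, and *ABCG42* touched or overlapped *ABCG30* and lay 1943 bp from *ABCG43*, none of which were listed. *ENT4* and *ENT5* were 11735 bp apart, and their neighbour *FUR1* was unlisted. In this array repeated sequence was high, with 19.6% of the 31-base words in and around *ENT4* and 20.6% around *ENT5* found more than once in the genome.

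Close neighbours gave a view of how a peak was assigned. For 53 of the 55 members a neighbouring gene lay within 4 kb, so that the flanks of 2 kb overlapped. Such a neighbour was itself listed for 13 members (23.6%, beside 27.3% of all listed genes), shared at least 1 list with 7 members and had the same 6 values for 1 member. That member was *CNGC1*, whose gene overlaps or touches *SPDS3*, a spermine synthase gene that was also in all 6 lists, and these listings cannot be told apart. *CHX18* and its neighbour *RTNLB4*, 393 bp away, shared 4 lists. For 16 members the neighbours stood so close (gene and space together at most 4000 bp) that any point within 2 kb of the member was also within 2 kb of a neighbour. Those 16 had 40 listings, and in 38 of them (95.0%) neither neighbour was in the same list. Over all listed genes this share was 85.2% of 2262 listings. *VDAC2*, with 122 bp of space in all, and *ATMGT7*, with 126 bp, were in all 6 lists without a listed neighbour. The lists therefore do not hold every gene within 2 kb of a peak, and an unlisted transporter gene may still have lain within 2 kb of one.

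**Figure D5:**
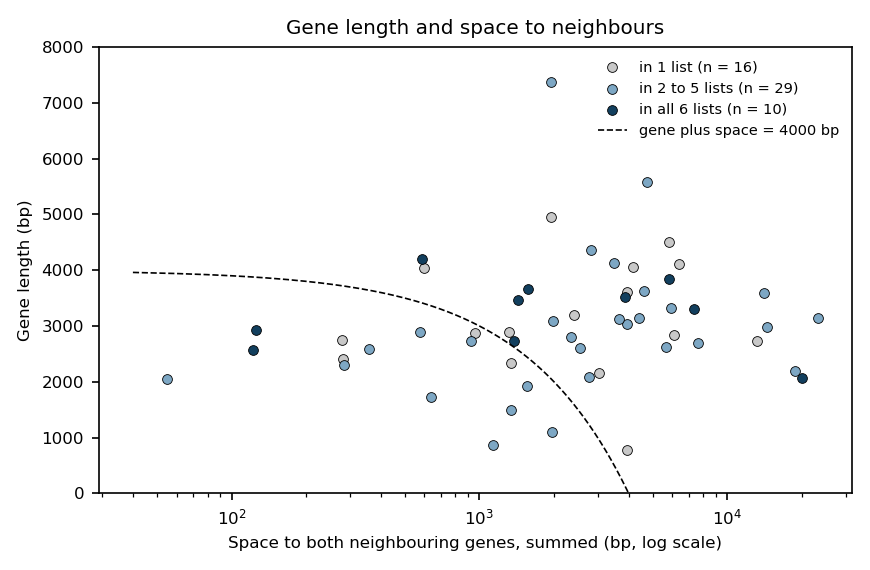
Each point is 1 of the 55 genes, placed by the summed space to its neighbouring genes (log scale, bp) and its length (bp), and shaded by the number of lists. The 10 genes in all 6 lists lie between 122 and 19968 bp of space, and 16 genes lie on or under the dashed line where gene and space sum to 4000 bp.

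The members were long genes, with a median of 2900 bp beside 2253 bp for all listed genes, but unlisted genes of the transport families were as long (2935 bp). The 10 members in all 6 lists had a median length of 3386 bp. Their median space to both neighbours was 1506 bp, beside 3624 bp for all 426 genes in 6 lists, 2535 bp for the 55 members and 2365 bp for unlisted family genes. Median GC content over the gene and 2 kb on both sides was 36.4% in the members and 36.3% in all listed genes. The share of repeated 31-base words had a median of 0.943% in the members and 1.28% in all listed genes, and it was 1.33% in the members in all 6 lists beside 3.08% in all genes in 6 lists. Of the members, 9 lay among the 10% of all genes richest in repeated sequence (10.6% or more), and 0 of those 9 were in all 6 lists. The same counts were not made over all listed genes. With 10 of the 55 members in all 6 lists, 0 of 9 is too small a count to set these genes apart. The highest values were 21.1% for *AVT6C*, 20.6% for *ENT5*, 19.6% for *ENT4* and 17.7% for *CNGC12*, genes where reads from near-identical copies may be hard to place. Chromosomes 1 to 5 held 16, 11, 6, 12 and 10 members, which for chromosome 3 was 10.9% of members beside 18.8% of all listed genes.

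The row order of the lists held 1 more property of the members. On each chromosome the rows form 3 runs sorted by position, where the first run holds plus strand genes, the second minus strand genes and the third both strands, and no source used here says what the runs stand for. The third run held 55 of the 153 listings of members (35.9%, beside 37.2% over all listed genes). Members in a single list were in the third run in 11 of 16 cases (68.8%, beside 55.5%), and the 10 members in all 6 lists in 20 of 60 listings (33.3%, beside 23.7%). *CNGC10* and *POT1* were in the third run in all 6 lists, and *ERD4*, *PLT2*, *ATMGT7*, *NHX4* and *VDAC2* in none. *BOR3* was in the second run for plant 2 and in the third for plants 1 and 3, against both controls alike. *CNGC1* was in the third run for plant 2 and in the second for plants 1 and 3, again against both controls. *ABCB23* was in the third run for plants 1 and 3 against C3 and otherwise in the second. Where a member was listed for the same plant against both controls, the run was the same in 45 of 50 cases (90.0%), and between lists from other plants and other controls it was the same in 63 of 82 (76.8%). Over all listed genes these shares were 89.5% and 86.3%.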

How the data were processed

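FAIRE-seq libraries of 2 wild type and 3 memory plants were compared by the authors, who deposited 6 gene lists, of genes they associated with a peak within 2 kb. The values used are presence or absence of a locus, taken from the identifier, symbol and description columns, with 0 columns left unused. Per the submitters' processing notes, Trim Galore 0.4.1, cutadapt 1.9.1, Bowtie2 and the TAIR10 build were used. Peak caller, threshold and depth are not given in the sources used here, so depth is unknown, no interval is given, and absence from a list does not show absence of a peak.

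All 2600 listed identifiers matched the RefSeq annotation of TAIR10.1, whose 27444 nuclear protein-coding genes were the background. Each member received 1 substrate class, by the first match of its description in a fixed order of classes. Genes named were those in all 6 lists, those in the most lists of each class, neighbouring members and *MSH1*; the other members are named so that every member is accounted for. Transport families were collected by RefSeq symbol or product text. Gene space, GC content and repeated 31-base words were computed from the TAIR10.1 genome with Python 3.11.15 and numpy 2.4.6; the word counter was tested on simulated data. No test was run, since each list rests on 1 library a side. Members, classes and lists were chosen with earlier results of these data known. Other wordings of the rule, each memory plant and each control left out, and neighbours were tried as alternatives.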

Additional observations from a re-analysis of the deposited data

How the results depend on the processing

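Leaving out each memory plant in turn gave 38 to 51 members in at least 1 list (55 with all plants), 10 to 13 members in every remaining list (10), a median of 2.0 to 2.0 lists, and a ratio of members against C2 to those against C3 of 1.13 to 1.34 (1.25). The lowest count, 38, came without plant 1, and the lowest ratio, 1.13, without plant 3. With the lists against C2 alone 16 members were in every list, where those against C3 alone gave 10, and with the lists against C3 alone the median was 1.0 list; fewer lists were read in both. Chosen after seeing the data, a limit of under 1% repeated sequence left 29 members, 5 of them in all 6 lists (*ERD4*, *BOR3*, *CNGC1*, *NHX4* and *VDAC2*), because the other members were removed. Searching the whole description, keeping the excluded words (57 members, 11 in all 6 lists), taking the 51 members described as membrane transport proteins alone, counting neighbouring members once, leaving out members with a listed neighbour (42 members, 8 in all 6 lists), and taking families by product text alone (8.19% listed in place of 8.26%) moved no value by over 1.5 times. No paired test was run. Lists of the same memory plant were compared between C2 and C3 by counts alone, and no label ties these codes to the wild type replicates. The hydrophobic stretches planned for the proteins were not computed. Depth is unknown, so its effect on list length was not tested.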
